A study of Danio rerio with 6 samples.

Results

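The genes described here are 10 immediate early and stress genes of the zebrafish (Danio rerio), followed through 6 samples of regenerating adult heart. They are atf3, nr4a1, nr4a3, fosab, fosl1a, junba, junbb, egr1, ptgs2b and socs3b. They were selected on their levels in these same samples, in which several stood far apart between samples of 1 group, so their differences between DN-MAML and WT are given as a description with no test. By gene symbol, 9 of the 10 were found among the 33737 genes of the authors' deposited table and 8 among the 32105 genes with a level in each sample, and all 8 passed the minimum level, a mean of 0.5 FPKM. An FPKM is a count of sequenced fragments divided by the length of the gene and by the total of the sample. The symbol fosab is absent. A gene listed as fos (ENSDARG00000031683) is given in its place, because the RefSeq gene table holds fos as an older name of fosab. The identifier listed as junbb (ENSDARG00000088371) has no FPKM. An identifier of the FPKM that the gene name table calls JUNB (ENSDARG00000104773) is described beside the others, and whether it is junbb was not established. Both substitutes were added after their values were seen, and they enter no count of the 8.

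The 3 DN-MAML samples are hearts of fish carrying Tg(hsp70l:DN-MAML), in which the heat shock promoter hsp70l drives a dominant-negative form of the Notch co-activator Mastermind in any cell that responds to heat. The 3 WT samples are hearts of wild-type fish. Fish of both groups were TU-AB adults aged 6 to 12 months, were given a heat shock of 38 C for 1 hour each day, and were sampled 5 days after amputation of the heart. How long after the last heat shock the hearts were collected, and how many hearts make up a sample, is not stated in the labels, and every p-value therefore reflects the spread among these samples, which may be technical.

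Immediate early genes are switched on within minutes of a stimulus, from transcription factors already present in the cell such as Srf and Creb, and without new protein synthesis. Many encode transcription factors: Fos and Jun proteins pair to form AP-1, Atf3 joins the same family of leucine zipper factors, Egr1 is a zinc finger factor, and Nr4a1 and Nr4a3 are nuclear receptors without a known hormone. Ptgs2 makes prostaglandin precursors, and Socs3 shuts down cytokine signalling through Jak and Stat proteins. In the heart they respond to injury, stretch, heat and handling, and their messages decay quickly.

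The samples were hearts by their markers: the myosin light chain gene myl7 had 10942 to 15848 FPKM and the natriuretic peptide gene nppa 1488 to 2334 FPKM over the 6 samples. The FPKM of a sample added up to between 852800 and 914700, and the read depth is unknown. WT replicate 1 stood apart from the other WT samples in several of the genes chosen. In some of them, such as nr4a1 and egr1, DN-MAML replicate 1 also stood apart from the other DN-MAML samples. Across the 16556 genes tested, limma called 16 genes (0.0966%) at an adjusted p under 0.05, 9 higher and 7 lower in DN-MAML, and 180 genes (1.09%) when WT replicate 1 was left out. With all samples, 2189 genes had an unadjusted p under 0.05. None of the 8 genes was among the 16.

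Expression of nr4a3 was high in 2 samples only. The nuclear receptor gene (ENSDARG00000055854) had 1.17, 1.24 and 1.66 FPKM in DN-MAML replicates 1, 2 and 3, against 0.73, 63.6 and 65.0 FPKM in WT replicates 1, 2 and 3. WT replicate 1 was the lowest of all 6 samples, and the groups overlap for that reason. Within WT the highest value was 89.0 times the lowest, while within DN-MAML it was 1.42 times the lowest. When the genes of a sample were ordered by FPKM, nr4a3 ranked 1036 and 1063 among all genes in WT replicates 2 and 3, and between 13328 and 15546 in the other 4 samples. Its log2 change, on the log2(FPKM + 0.5) scale that all limma changes here use, was -3.23 (SE 1.69), and -5.13 (SE 0.14) without WT replicate 1.

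The stress-induced leucine zipper gene atf3 (ENSDARG00000007823) followed nr4a3. It had 4.28, 13.2 and 5.49 FPKM in the DN-MAML replicates, against 4.95, 158 and 144 FPKM in the WT replicates. WT replicate 1 lay within the range of the DN-MAML samples, and the lower of WT replicates 2 and 3 was 10.9 times the highest other sample, where it was 38.3 times for nr4a3. A gap of at least 2 times was found in 54 genes (0.326% of those tested), 4 of them among the 8 genes chosen. The 8 were selected on such levels in these same samples, so nothing is read from that count. The log2 change of atf3 was -2.77 (SE 1.47), and -4.37 (SE 0.51) without WT replicate 1.

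The AP-1 subunit gene fosl1a (ENSDARG00000015355), a zebrafish counterpart of mammalian Fra-1, had 3.19, 2.02 and 3.02 FPKM in the DN-MAML replicates and 1.12, 7.46 and 9.32 FPKM in the WT replicates. WT replicates 2 and 3 were again the 2 highest samples and WT replicate 1 the lowest. In WT replicates 2 and 3 the level was much lower than that of nr4a3, and in every other sample it was higher. The lower of WT replicates 2 and 3 was 2.34 times the highest other sample. The log2 change of -0.65 (SE 0.73) became -1.47 (SE 0.20) without WT replicate 1.

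In nr4a1 (ENSDARG00000000796), the related receptor gene, the first replicate of each group was low. It had 5.27, 79.3 and 73.3 FPKM in the DN-MAML replicates, against 15.9, 196 and 166 FPKM in the WT replicates. The 4 samples numbered 2 and 3 were at least 4.61 times the higher of the 2 samples numbered 1, and among those 4 the WT samples were the higher ones. The log2 change was -1.33 (SE 1.5) with all samples and -2.48 (SE 1.48) without WT replicate 1.

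**Figure D1:**
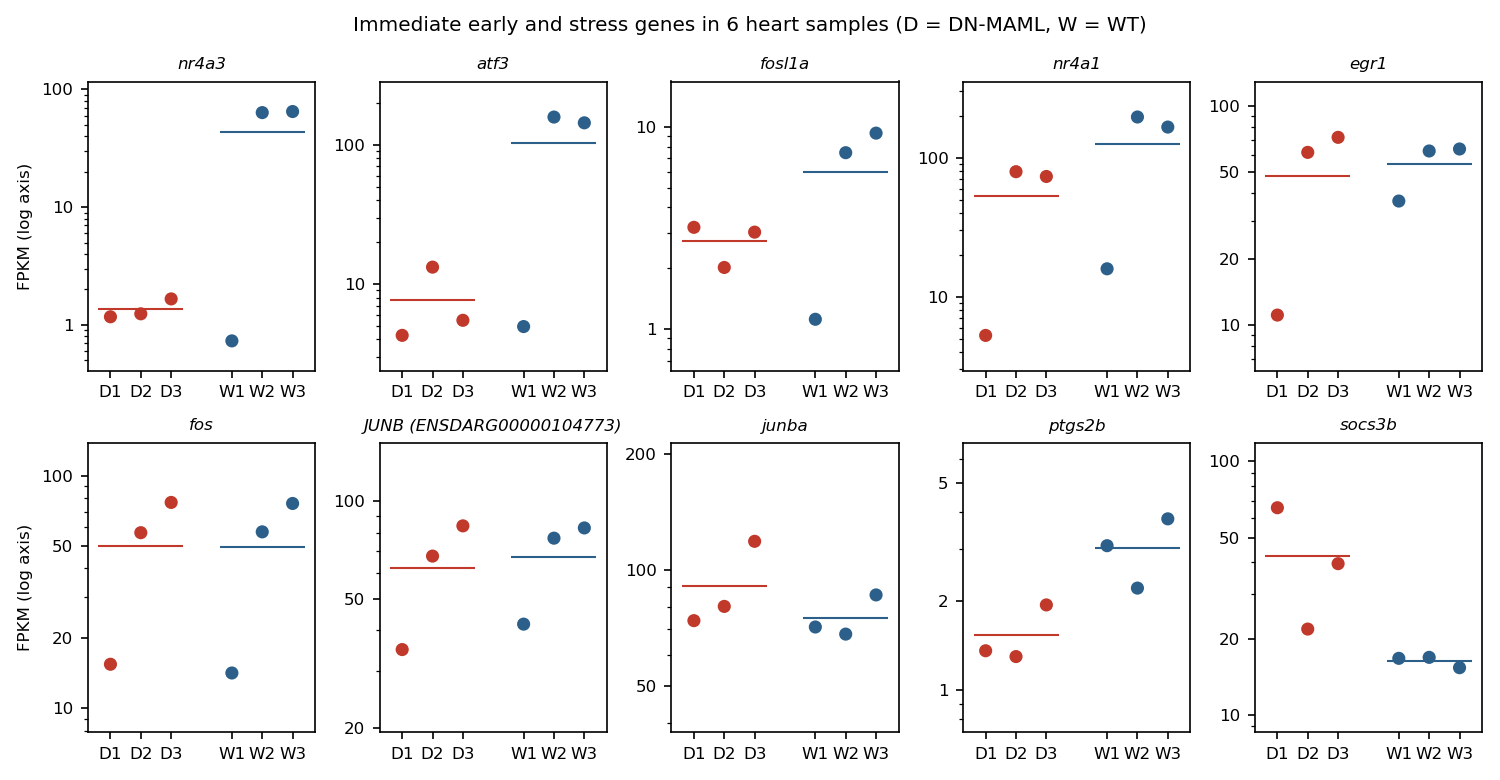
FPKM on a log axis in each of the 6 samples, DN-MAML in red on the left and WT in blue on the right. Each point is 1 sample and each line the mean of 3 samples. In nr4a3, atf3 and fosl1a WT replicates 2 and 3 lie above all other samples, in fos and egr1 DN-MAML replicate 1 and WT replicate 1 lie below them, and in ptgs2b and socs3b the groups do not overlap.

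The genes egr1 and fos were low in the same first replicates and showed no separation of the groups. The zinc finger factor egr1 (ENSDARG00000037421) had 11.1, 61.5 and 72.0 FPKM in the DN-MAML replicates and 36.8, 62.4 and 63.7 FPKM in the WT replicates. DN-MAML replicate 1 was the lowest sample, WT replicate 1 the next, and the other 4 lay close together. The AP-1 subunit fos had 15.5, 56.8 and 76.7 FPKM in the DN-MAML replicates and 14.2, 57.3 and 75.9 FPKM in the WT replicates. The 2 groups gave nearly the same value at each replicate number, and the log2 change was 0.04 (SE 0.90), or -0.68 (SE 0.82) without WT replicate 1. The identifier called JUNB had 34.9, 67.7 and 83.9 FPKM in the DN-MAML replicates and 41.8, 76.9 and 82.7 FPKM in the WT replicates. Over the 6 samples fos and JUNB had a Pearson r of 0.977 and a Spearman rho of 0.943, as a description of samples that share their libraries.

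The paralog junba (ENSDARG00000074378) varied least. It had 73.7, 80.3 and 118 FPKM in the DN-MAML replicates and 71.0, 68.0 and 86.0 FPKM in the WT replicates, so that the highest sample was 1.74 times the lowest. Its log2 change was 0.25 (SE 0.19). The identifier listed as junbb has a log2 change of -0.14 (SE 0.41) in the authors' deposited table.

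The enzyme and the feedback inhibitor did not overlap between the groups, in opposite directions. The prostaglandin synthase ptgs2b (ENSDARG00000010276) had 1.36, 1.3 and 1.94 FPKM in the DN-MAML replicates, against 3.07, 2.21 and 3.78 FPKM in the WT replicates. Its mean was 1.53 ± 0.353 FPKM in DN-MAML and 3.02 ± 0.786 FPKM in WT (SD, n = 3), with a log2 change of -0.78 (SE 0.20). The cytokine signalling inhibitor socs3b (ENSDARG00000026611) had 65.6, 21.8 and 39.5 FPKM in the DN-MAML replicates, against 16.7, 16.9 and 15.4 FPKM in the WT replicates. The WT samples lay within 1.098 times of each other, while the DN-MAML samples spread over 3.01 times. The log2 change of socs3b was 1.21 (SE 0.38), and both genes kept nearly the same change without WT replicate 1 (-0.76, SE 0.24, for ptgs2b and 1.23, SE 0.49, for socs3b).

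Of the 8 genes, 1 had groups that do not overlap with DN-MAML lower and 1 with DN-MAML higher, where 8.98% and 9.83% of all genes tested did. On the side of the change, 6 were lower and 2 higher in DN-MAML, where 55.1% of all genes tested were higher. Their median log2 change was -0.72, beside 0.03 over all genes tested, and -1.12 without WT replicate 1. In the authors' deposited table, 7 of the 10 genes have an adjusted p, with junbb among them and without atf3 and nr4a3. Of these 7, 2 are under 0.05, ptgs2b lower and socs3b higher, where 4.38% of all genes with an adjusted p are. Because the genes were chosen with these values known, nothing is read from these counts.

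**Figure D2:**
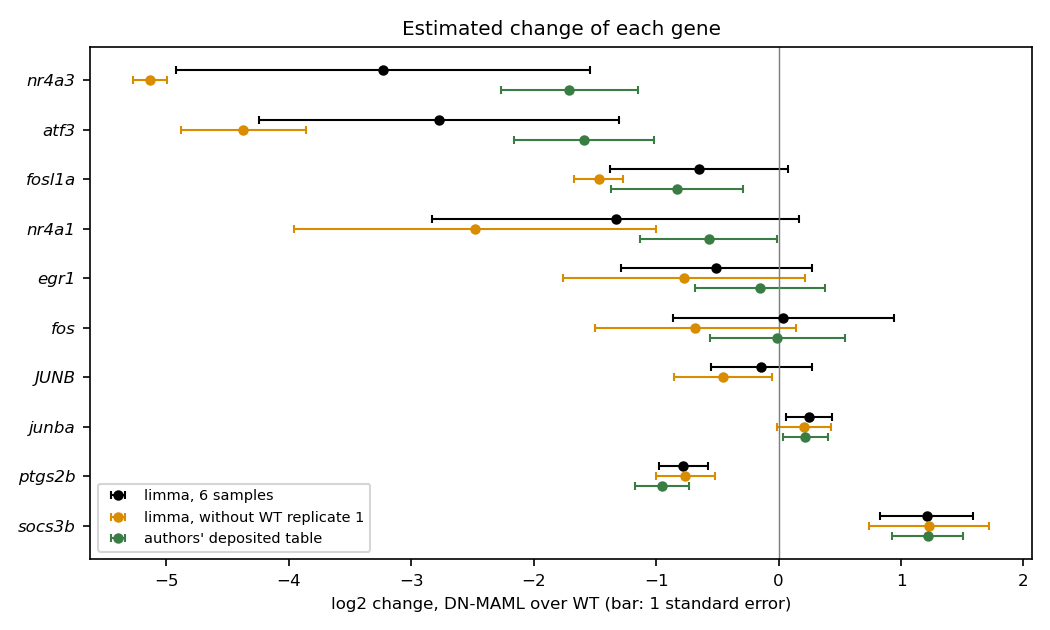
Log2 change of each gene, DN-MAML over WT, with a bar of 1 standard error, from limma with 6 samples (black), from limma without WT replicate 1 (orange) and from the authors' deposited table (green, none for JUNB). Without WT replicate 1 the points of nr4a3, atf3 and fosl1a move to the left, past the bar of the fit with 6 samples. The point of nr4a1 also moves to the left but stays within that bar, as do those of junba, ptgs2b and socs3b.

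The authors' deposited table gives smaller changes for the genes with the widest spread. It holds -1.71 (SE 0.56) for nr4a3 and -1.59 (SE 0.57) for atf3, where the log2 ratio of the mean FPKM is -4.99 for nr4a3 and -3.74 for atf3. These are unlike measures, so the gap is not read as a trait of these genes. No SE in the authors' deposited table is above 0.57. Neither gene has a p-value in the authors' deposited table, although both have a fold change, which is the case for 19 of the 27887 genes with a fold change. For ptgs2b the authors' deposited table holds -0.95 (SE 0.22) and for socs3b 1.22 (SE 0.29), next to log2 ratios of the mean FPKM of -0.98 and 1.38.

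Some related genes of the same families had the same order of samples and others did not. In the Jun family, jund had 3.00, 19.1 and 12.3 FPKM in the DN-MAML replicates, against 5.76, 64.5 and 57.4 FPKM in the WT replicates. Its sister gene jun had 69.8, 186 and 162 FPKM in the DN-MAML replicates, against 103, 255 and 238 FPKM in the WT replicates. In both, the first replicate of each group was lowest and WT replicates 2 and 3 were highest. The Fos family gene fosb had the same order at a low level, with 0.13, 1.99 and 1.72 FPKM in DN-MAML and 0.54, 3.72 and 3.05 FPKM in WT. Other Fos relatives varied less. The gene fosl2 had 6.26, 5.31 and 8.04 FPKM in DN-MAML and 3.73, 8.85 and 8.73 FPKM in WT. There WT replicates 2 and 3 were narrowly the highest samples and WT replicate 1 the lowest, as in fosl1a. The gene fosl1b had 1.19 to 1.89 FPKM in DN-MAML and 1.44 to 2.59 FPKM in WT, with WT replicate 1 the highest. The gene fosaa stayed under 0.1 FPKM in every sample and was not tested.

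Among the Egr genes, egr2a had 0.30, 1.15 and 1.12 FPKM in the DN-MAML replicates, against 0.83, 2.58 and 3.05 FPKM in the WT replicates. The gene egr3 had 0.79, 2.12 and 2.15 FPKM in the DN-MAML replicates, against 1.05, 2.66 and 3.06 FPKM in the WT replicates. Both were lowest in the first replicates, as egr1 was. The third nuclear receptor of the Nr4a family went the other way within WT: nr4a2a had 0.78, 0.62 and 1.05 FPKM in DN-MAML and 1.61, 0.13 and 0.30 FPKM in WT, where WT replicate 1 was the highest sample. Both egr2b and nr4a2b had a mean under 0.5 FPKM and were not tested.

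The second copies of the inhibitor and the enzyme did not move like the first. The gene socs3a had 21.2, 124 and 44.2 FPKM in the DN-MAML replicates, against 66.0, 121 and 208 FPKM in the WT replicates, and the groups overlap, where socs3b was higher in every DN-MAML sample. The change of socs3a is -1.27 (SE 0.77) here and 0.25 (SE 0.51) in the authors' deposited table, so its direction is not settled. The gene ptgs2a had 7.97, 10.7 and 12.0 FPKM in DN-MAML and 7.25, 9.42 and 11.1 FPKM in WT, with overlapping groups. None of these related genes passed the test in limma over all genes with all samples (adjusted p = 0.436 for egr2a, 0.532 for socs3a, 0.605 for jund and between 0.661 and 0.973 for the others tested).

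**Figure D3:**
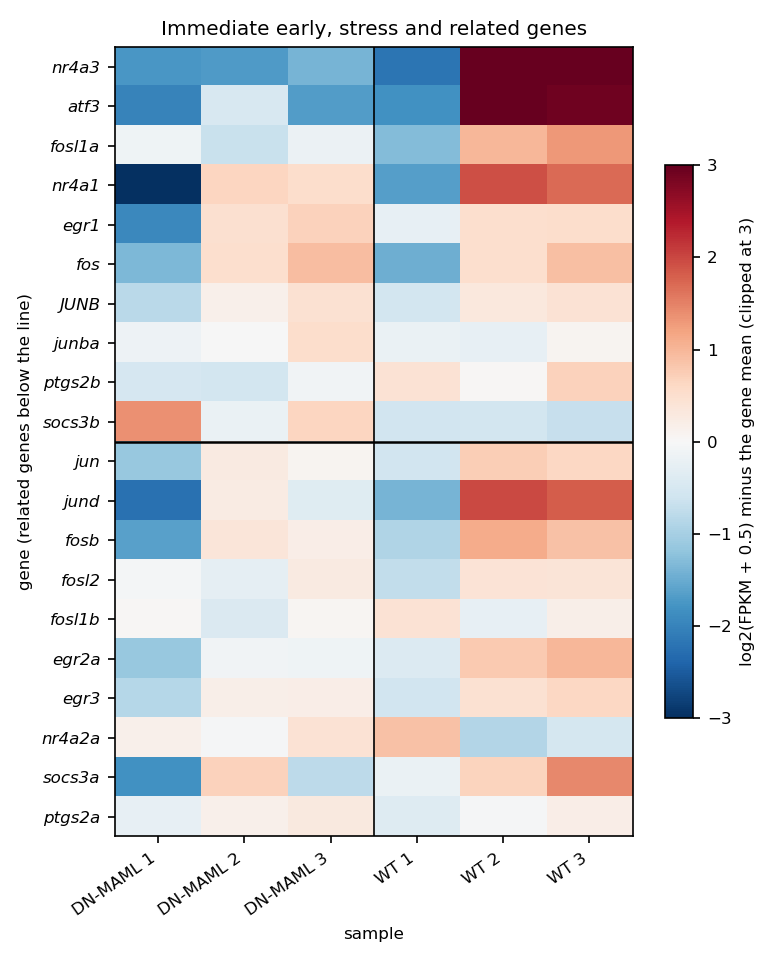
Colour map of log2(FPKM + 0.5) minus the mean of the gene over the 6 samples (red higher, blue lower, clipped at 3), DN-MAML samples on the left and WT samples on the right. Rows above the line are the genes followed here and rows below are related genes. Blue cells under DN-MAML replicate 1 and WT replicate 1 recur in nr4a1, egr1, fos, JUNB, jun, jund, fosb, egr2a and egr3.

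The wider pathway was taken as 7 lists of other genes, with 257 genes tested. None passed limma's test over all genes, and 26 had an unadjusted p under 0.05, where 2189 of all 16556 genes tested did. Of 232 with an adjusted p in the authors' deposited table, 4 are higher and 0 lower past the threshold, where 4.38% of all genes are past it. Of the AP-1, ATF, Maf and C/EBP factors (28 tested, median log2 change -0.06), 18 were on the lower side. The share on the higher side was 35.7%, against 55.1% of all genes tested. Here atf6, a sensor of unfolded protein in the endoplasmic reticulum, had 12.1, 9.90 and 12.8 FPKM in DN-MAML and 9.46, 7.76 and 9.45 FPKM in WT (limma, adjusted p = 0.312). It passes in the authors' deposited table (log2 change 0.36, adjusted p = 0.0412). The stress factor atf5a had 4.00, 3.74 and 5.27 FPKM in DN-MAML and 4.98, 6.52 and 7.67 FPKM in WT (limma, adjusted p = 0.308). The Creb antagonist cremb had a log2 change of -0.47 (SE 0.19) and atf7b one of 0.25 (SE 0.11).

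Among the Egr, Nr4a, Klf and other early transcription factors (36 tested, median -0.09), 22 were on the lower side. The share on the higher side was 38.9%, against 55.1% of all genes tested. The 4 with the smallest p were nfil3-2 (log2 change 0.43, SE 0.16), the snail factor snai1a (-0.28, SE 0.12), the hypoxia factor hif1aa (-0.22, SE 0.09) and the NF-kappaB subunit relb (0.31, SE 0.13), with limma adjusted p between 0.316 and 0.386. Of the early response feedback and signalling genes (46 tested, median -0.15), 28 were on the lower side. There btg3 (0.25, SE 0.11), the NF-kappaB inhibitor nfkbiaa (0.53, SE 0.24), the mRNA decay factor zfp36l1a (0.54, SE 0.25) and the MAP kinase phosphatase dusp16 (-0.25, SE 0.12) had the smallest p, none past the threshold (limma, adjusted p between 0.376 and 0.423). Among the secreted and surface early response genes (17 tested, median -0.11), the activation marker cd83 had 2.94, 4.43 and 4.03 FPKM in DN-MAML and 2.44, 1.57 and 2.30 FPKM in WT (limma, adjusted p = 0.212). It passes in the authors' deposited table (0.88, adjusted p = 0.0190). The growth factor hbegfa had 29.2, 35.7 and 28.7 FPKM in DN-MAML and 39.3, 43.7 and 42.4 FPKM in WT (limma, adjusted p = 0.212), and the groups do not overlap. The matrix protein gene ccn1l1 (named cyr61l1) had a log2 change of 1.05 (SE 0.41), with overlapping groups.

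In the Socs and Jak-Stat list (39 tested, median 0.21), 31 (79.5%) were on the higher side, where 55.1% of all genes tested were, and none passed limma's test. The inhibitor socs1b had 2.56, 2.02 and 3.10 FPKM in DN-MAML and 1.29, 0.84 and 1.51 FPKM in WT (limma, adjusted p = 0.185). The kinase jak1 had 40.7, 30.3 and 39.9 FPKM in DN-MAML and 29.6, 24.5 and 27.7 FPKM in WT (limma, adjusted p = 0.277), and the shared cytokine receptor il6st had 38.2, 27.7 and 33.8 FPKM in DN-MAML and 28.1, 23.4 and 24.4 FPKM in WT (limma, adjusted p = 0.312). The cytokine il11b, which acts through il6st, had 0.97, 0.71 and 0.91 FPKM in DN-MAML and 0.21, 0.49 and 0.61 FPKM in WT. The inhibitor socs2 passes in the authors' deposited table (0.68, adjusted p = 0.0356) and not here (limma, adjusted p = 0.330).

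Of the prostanoid genes (26 tested, median 0.11), 15 (57.7%) were on the higher side, near the share of all genes. The thromboxane synthase tbxas1 had 12.7, 12.3 and 18.2 FPKM in DN-MAML and 8.41, 8.87 and 10.5 FPKM in WT (limma, adjusted p = 0.228), and it passes in the authors' deposited table (0.58, adjusted p = 0.0283). The prostaglandin E receptor ptger4a had 2.55, 5.02 and 6.32 FPKM in DN-MAML and 6.75, 7.36 and 12.6 FPKM in WT (limma, adjusted p = 0.365), on the same side as ptgs2b. The lipoxygenase alox12 had a log2 change of 0.39 (SE 0.15) and ptges3a one of -0.23 (SE 0.09). Of the upstream factors and kinases, 43 of 65 (66.2%) were on the higher side, with a median of 0.07. There the kinases rps6ka3b (0.34, SE 0.13), mapk6 (-0.54, SE 0.21), camk2b1 (-0.25, SE 0.10) and mapk7 (0.32, SE 0.14) had the smallest p (limma, adjusted p between 0.339 and 0.395).

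Without WT replicate 1, 7 of the 257 genes of these lists (2.72%) passed limma's test, 6 of them lower in DN-MAML, where 1.09% of all genes passed. WT replicate 1 was set apart because of its values in these same samples. Leaving it out lowers the spread of genes in which it differed from the other WT samples. The adjusted p-values of that fit are therefore a description and no support for a difference between the groups. The tissue factor gene f3b, which starts blood clotting, had 58.3, 109 and 71.6 FPKM in DN-MAML and 65.6, 375 and 320 FPKM in WT (adjusted p = 0.0373 without WT replicate 1, 0.491 with it). Its copy f3a had 4.59, 7.10 and 5.11 FPKM in DN-MAML and 5.93, 15.4 and 16.8 FPKM in WT (0.0177 without WT replicate 1, 0.376 with it). The MAP kinase phosphatase gene dusp8a had 7.14, 11.5 and 8.65 FPKM in DN-MAML and 7.40, 38.0 and 44.5 FPKM in WT (0.00698 without WT replicate 1, 0.486 with it). The other 3 on the lower side were crema, a cAMP-responsive factor, mafk (named MAFK) and mapk6. The gene on the higher side, klf11a, had 8.47, 7.69 and 8.27 FPKM in DN-MAML and 12.2, 3.09 and 3.42 FPKM in WT. In the 6 lower genes, WT replicate 1 lay beside the DN-MAML samples or below them.

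The order of the 6 samples was counted over each list, a count chosen after the values were seen and given with no test. WT replicates 2 and 3 were the 2 highest samples in 7.89% of all genes tested, in 47 of the 127 genes (37.0%) of the 4 lists of early transcription factors, feedback and secreted genes, and in 4 of the 8 genes chosen for such levels. In the opposite order, WT replicates 2 and 3 were the 2 lowest in 18.6% of all genes tested and in 27 of those 127 (21.3%). DN-MAML replicate 1 and WT replicate 1 were the 2 lowest in 3.76% of all genes tested and in 52 of those 127 (40.9%). In the feedback and signalling list they were the 2 lowest in 26 of 46 genes (56.5%). The upstream factors and kinases stood near all genes, with 3 of 65 (4.62%) lowest in the first replicates and 5 of 65 (7.69%) highest in WT replicates 2 and 3, and so did the Socs and Jak-Stat list, with 1 of 39 (2.56%) and 3 of 39 (7.69%).

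Several genes of these lists were separated by replicate more than by genotype, named after their values were seen. The Krüppel-like factor klf9, a target of glucocorticoid hormone, had 2.15, 18.9 and 25.7 FPKM in the DN-MAML replicates and 1.61, 29.6 and 26.6 FPKM in the WT replicates. The 4 samples numbered 2 and 3 were at least 8.79 times the higher of the first replicates. The growth-restraining gene btg2 had 12.7, 106 and 111 FPKM in DN-MAML and 30.4, 172 and 174 FPKM in WT. The MAP kinase phosphatase dusp1 had 14.0, 83.0 and 91.5 FPKM in DN-MAML and 29.9, 60.1 and 82.6 FPKM in WT. The matrix protein gene ccn1 (named cyr61) had 41.5, 160 and 121 FPKM in DN-MAML and 44.7, 188 and 178 FPKM in WT. In all 4 the samples numbered 2 and 3 were high in both groups.

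**Figure D4:**
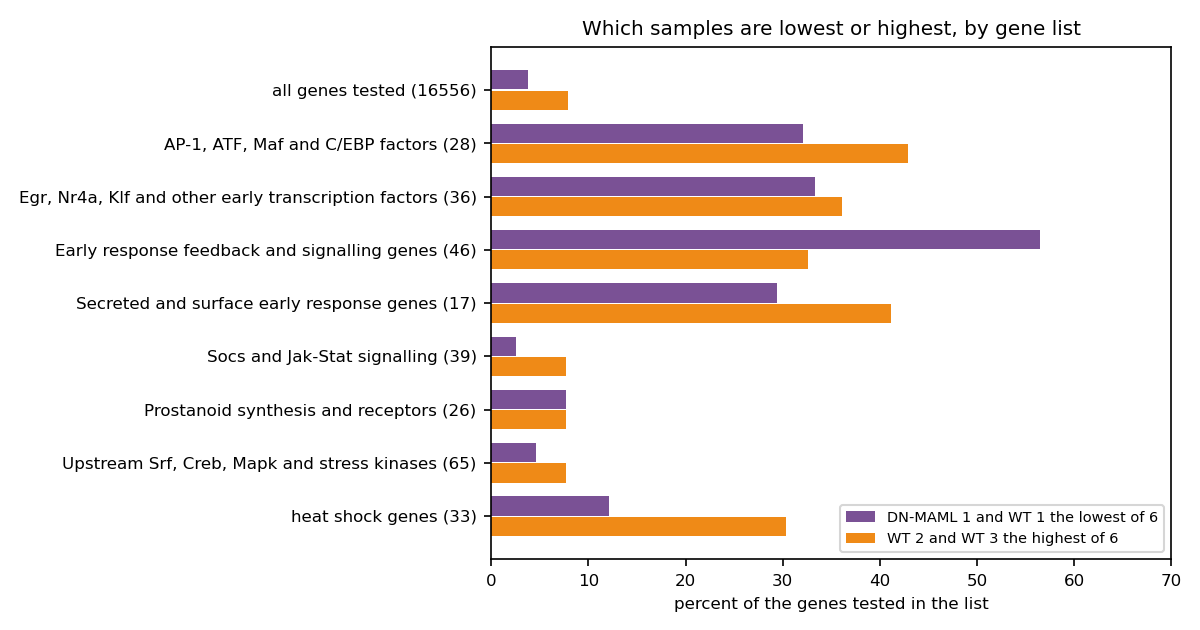
Percent of the genes tested in each list (number in brackets) for which DN-MAML replicate 1 and WT replicate 1 were the 2 lowest of the 6 samples (purple) or WT replicates 2 and 3 the 2 highest (orange). The 4 early response lists reach 29.4% to 56.5% in purple and 32.6% to 42.9% in orange, against 3.76% and 7.89% of all genes tested.

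Genes with the most similar profile were sought by Pearson r over the 6 samples with the mean centred log2(FPKM + 0.5) of the 8 genes. That mean was -1.03, -0.31 and -0.12 in the DN-MAML replicates and -0.94, 1.15 and 1.26 in the WT replicates. Among the 8, nr4a3 (0.957), atf3 (0.955), nr4a1 (0.894) and fosl1a (0.886) followed it closely, junba did not (0.053) and socs3b ran against it (-0.58). Each of the 8 is itself part of that mean, and genes with a wide range weigh most in it. The log2 range was 5.73 for nr4a3 and 5.05 for atf3, against 0.8 for junba. A high r of such a gene is therefore partly built in. Of 2411 other genes that ranged over at least 1 log2 unit, 129 (5.35%) had an r of at least 0.9. With 6 samples such values are frequent, and r is given as a description. The zinc finger gene zfand5b came first (r = 0.997), with 20.1, 32.8 and 32.0 FPKM in DN-MAML and 21.1, 77.5 and 81.7 FPKM in WT. The insulin receptor substrate genes irs2 and irs1 were among the 15 named. Here irs2 (0.995) had 7.58, 12.8 and 14.3 FPKM in DN-MAML and 7.60, 31.9 and 29.6 FPKM in WT. For irs1 (0.991) the values were 3.14, 4.31 and 4.46 FPKM in DN-MAML and 3.37, 10.7 and 11.1 FPKM in WT. The mitochondrial carrier slc25a25a (0.992) had 3.84, 7.98 and 8.20 FPKM in DN-MAML and 3.15, 26.3 and 25.8 FPKM in WT. The others were the caspase inhibitor xiap (0.994), the leucine zipper gene hlfb (0.991), grasp and the actin-binding abraa (0.989 each), pik3r3a (0.988), the amino acid transporter subunit slc3a2b (0.987), tuft1a (0.986), itpkcb (0.984), b3gnt2b (0.983), stk35 (0.982) and FRMD5 (0.981), after 1 clone-style name was passed over.

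**Figure D5:**
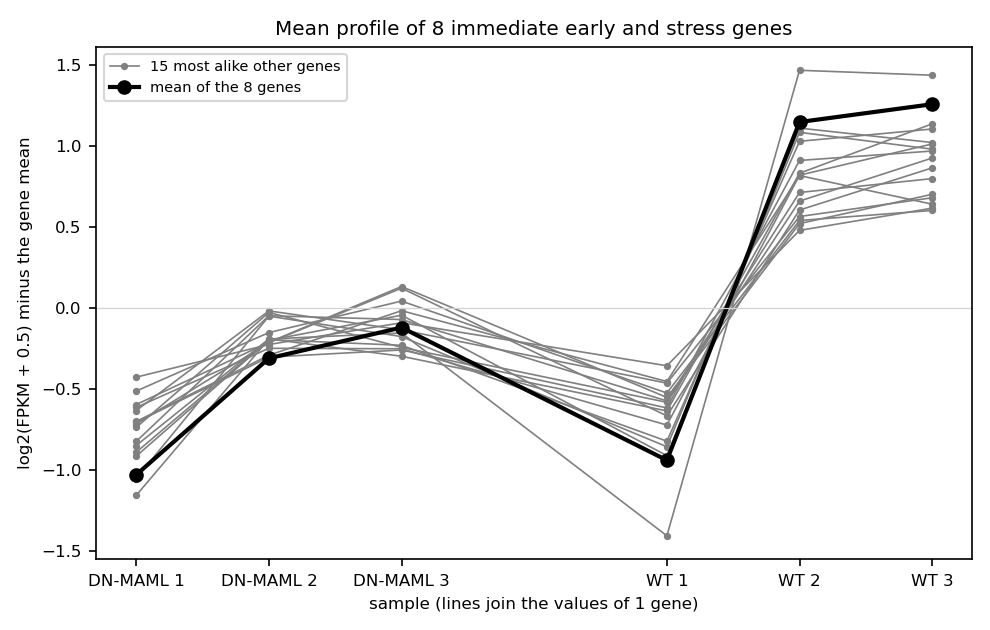
Log2(FPKM + 0.5) minus the gene mean in each sample, DN-MAML on the left and WT on the right, for the mean of the 8 genes (black) and the 15 other genes with the highest r (grey, 0.981 to 0.997). All lines are lowest in DN-MAML replicate 1 or WT replicate 1 and highest in WT replicate 2 or 3.

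Other measures also differed between the samples, not all in the order of these genes, and their part in the differences was not tested. In such whole-heart samples, fewer cells of a type and less RNA per cell cannot be told apart. The heat shock list (36 of 42 genes matched, hspb15 and cryaba at 0 in all samples) summed to 16040 to 16700 FPKM in DN-MAML and 14160 to 17020 in WT. The sum was lowest in WT replicate 1 and highest in WT replicate 2, while WT replicate 3 (16460) lay within the DN-MAML range. Within it, the small heat shock protein hspb9 had 6.07, 5.26 and 8.94 FPKM in DN-MAML and 5.06, 52.8 and 41.6 FPKM in WT, high in WT replicates 2 and 3 as nr4a3 was. The chaperone cofactor bag3 had 34.3, 39.1 and 43.3 FPKM in DN-MAML and 28.4, 107 and 104 FPKM in WT. Both hspb9 and bag3 were named after their values were seen. Of 33 heat shock genes tested, WT replicates 2 and 3 were the 2 highest samples in 10 (30.3%), against 7.89% of all genes tested. With all samples limma called 0 of the 33, with 4 at an unadjusted p under 0.05, where 2189 of all 16556 genes tested were. Without WT replicate 1 limma called 2, hspb9 (log2 change -2.74, adjusted p = 0.00715) and bag3 (-1.44, adjusted p = 0.00452), both lower in DN-MAML. Of all genes tested, 1.09% passed in that fit, which is no support for a difference, for the reason given above. Of the 30 with an adjusted p in the authors' deposited table, 2 are past the threshold with DN-MAML higher and 1 with DN-MAML lower. Among all genes with an adjusted p there, 4.38% are past it. The gene hsp70l itself was high in WT replicate 3 alone (6.84, 2.72 and 6.23 FPKM in DN-MAML and 4.77, 8.10 and 73.8 FPKM in WT).

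Blood and immune markers also differed between the samples. The erythroid list (27 of 28 matched, hbae1 and hbbe3 at 0) summed to 11800 to 18350 FPKM in DN-MAML and 19050 to 33750 in WT, with WT replicate 1 the lowest of the WT samples. The pan-leukocyte list (15 of 17 matched, none at 0) summed to 404 to 449 FPKM in DN-MAML and 292 to 398 in WT, and the lymphocyte list (22 of 24, none at 0) to 709 to 952 in DN-MAML and 483 to 702 in WT. In both, WT replicate 1 was the WT sample nearest to DN-MAML. The macrophage list (24 of 26, none at 0) summed to 1005 to 1331 FPKM in DN-MAML and 805 to 1081 in WT, and the neutrophil list (19 of 21, none at 0) to 300 to 349 in DN-MAML and 266 to 353 in WT. The cardiomyocyte list (19 of 23, none at 0) summed to 41590 to 50570 FPKM in DN-MAML and 48080 to 57030 in WT. The epicardial list (15 of 18, none at 0) summed to 4733 to 5305 in DN-MAML and 3336 to 5242 in WT, the endothelial list (27 of 28) to 626 to 759 and 549 to 631, the fibroblast and mural list (17 of 20) to 1637 to 2222 and 1458 to 2631, and the thrombocyte list (11 of 12) to 72.1 to 98.3 and 82.7 to 108, with DN-MAML before WT in each. The neuron and glia list (20 of 21, chat at 0) stayed under 10 FPKM in sum in every sample, with 8.59 to 9.95 in DN-MAML and 7.81 to 7.95 in WT. WT replicates 2 and 3 were the 2 lowest samples in the epicardial (3336 and 3817), macrophage (805 and 986), pan-leukocyte, lymphocyte, and neuron and glia sums. They were the 2 highest in the erythroid and cardiomyocyte sums, and neither in the neutrophil, endothelial, fibroblast and mural, and thrombocyte sums.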

How the data were processed

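RNA was sequenced from 3 DN-MAML and 3 WT heart samples. The authors deposited FPKM per gene and sample, rounded to 0.01, and a comparison table whose columns, per the file headers, are those of a DESeq2 result: a mean normalized count (signal), a log2 fold change with its SE, a score that is their ratio, and p-values, unadjusted and adjusted. The submitters' processing notes name the tools FastQC, cutadapt and STAR, and also featureCounts and DESeq2. For the genome build, annotation, versions and FPKM tool the entry is: not given in the sources used here. Therefore no coordinates or sequences are printed, and a planned search of promoters for motifs was not run. The 2 tables share 24667 identifiers.

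The 16556 genes whose mean reached 0.5 FPKM were analysed as log2(FPKM + 0.5), which understates changes of low genes. The 2 groups were compared in limma 3.58.1 (R 4.3.3; trended, robust variance, no block), adjusted by Benjamini-Hochberg over all genes at 0.05. The fit was tested on simulated data. The smallest p of an exact permutation test with 3 samples a group is 0.1, and no such test was used. Lists were matched by the authors' names, then by the gene name table, older RefSeq names, and capitals where unique. This placed 290 identifiers for the 327 listed genes of 7 pathway lists, and 2 identifiers whose names in the tables are different genes were left out. From each list the text names the 4 genes with the smallest p. It also names genes whose adjusted p in the authors' deposited table is under 0.05, and fixed relatives of the 10 genes. Other list genes were named outside this rule, after their values were seen. They are genes passing without WT replicate 1 or without both first replicates, and klf9, btg2, dusp1 and ccn1. Likeness was ranked by Pearson r among genes ranging over at least 1 log2 unit. The 10 genes, the lists and the rules were chosen with earlier results of these data known. Tables were made in Python 3.11.15 with pandas 2.3.3, numpy 2.4.6 and scipy 1.17.1, and figures in matplotlib 3.10.9.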

Additional observations from a re-analysis of the deposited data

How the results depend on the processing

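The median log2 change of the 8 genes (-0.72) stayed lower in DN-MAML under every alternative, from -0.40 to -1.12 when 1 sample was left out. The genes were chosen on their levels in these same samples, so the side that was kept is no support for a difference. The count of genes past limma's threshold (16) was 9 with a minimum mean of 2 FPKM and 10 after quantile normalization. Leaving out 1 sample moved it between 4 (without DN-MAML replicate 2 or WT replicate 3) and 180 (without WT replicate 1), and it was 6 without DN-MAML replicate 3. With the replicate number as a block, limma called 0 genes, with 2789 at an unadjusted p under 0.05. The deviations of same-numbered samples from their group means had an r of 0.208, -0.0264 and 0.140 for replicates 1, 2 and 3. Differently numbered samples had an r from -0.224 to 0.0943. The values of replicates 1 and 3 lay above all of these, and that of replicate 2 did not. Whether the numbers pair the samples is not settled, and the main fit used no block.

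The 7 lists had 0 genes past the threshold with all samples. Leaving out 1 sample gave 0 to 2 in the AP-1 list, 0 to 1 in the Egr and Nr4a list, 0 to 1 in the feedback list, 0 to 2 in the secreted list and 0 to 1 in the upstream list, in each case highest without WT replicate 1. Leaving out both first replicates, chosen after seeing the data, gave 207 of all 16556 genes tested. In those lists it gave 2, 3, 4, 3 and 1, together 13 of the 257 genes tested in the 7 lists. Of these 13, 12 were lower in DN-MAML, jund, egr2a, spry4 and btg2 among them. That fit has 2 samples a group. Both samples were left out because of their values in such genes, so its counts are no support for a difference between the groups. The Socs and prostanoid lists stayed at 0. Passing both without WT replicate 1 and without both first replicates were crema, klf11a, dusp8a, f3a, f3b and mapk6. Without both first replicates, nr4a3 was at -5.06, atf3 at -4.06, fosl1a at -1.57 and nr4a1 at -1.24. The cause was not tested.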

Other observations

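Some genes of the authors' deposited table with a fold change and no p-value were high in WT replicates 2 and 3, as atf3 and nr4a3 were. Of the 19 such genes, slc35e4 had 1.02, 1.34 and 1.51 FPKM in the DN-MAML replicates, against 1.51, 5.89 and 5.79 FPKM in the WT replicates. The gene osgn1 had 7.19, 6.33 and 7.40 FPKM in DN-MAML and 7.41, 17.8 and 19.2 FPKM in WT. A clone-named gene, si:ch211-192f15.3, had 0.10, 0.00 and 0.04 FPKM in DN-MAML and 0.06, 1.23 and 1.32 FPKM in WT. In all of these WT replicate 1 lay near the DN-MAML samples. The gene hsp70l, high in WT replicate 3, is also among the 19. Others of the 19 had no such order. The gene ptges3b had 113, 98.7 and 103 FPKM in DN-MAML and 112, 112 and 110 FPKM in WT. The gene pvalb4 was high in WT replicate 1 alone, at 4.99 FPKM. DESeq2 leaves the p-value empty where it judges 1 sample's count an outlier, and whether that happened here is not stated in the sources used.

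The disagreement of sign for socs3a between the tables is uncommon. Of 429 genes tested whose mean FPKM differ at least 2-fold and that have a fold change in the authors' deposited table, 7 (1.63%) have the opposite sign there.

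Among the 36 heat shock genes matched, 4 had groups that do not overlap with DN-MAML higher (fkbp4, hsph1, hspa8 and hsp90ab1) and 4 with DN-MAML lower (hsp70.3, hspa4l, hspa9 and dnaja1). Over all genes tested, 9.83% had such groups with DN-MAML higher and 8.98% with DN-MAML lower. Nothing is read from the 2 counts. The cochaperone fkbp4 had 279, 256 and 548 FPKM in the DN-MAML replicates, against 135, 171 and 158 FPKM in the WT replicates. The chaperone hsph1 had 98.8, 90.5 and 171 FPKM in DN-MAML and 67.4, 44.6 and 60.7 FPKM in WT. Both pass in the authors' deposited table (log2 change 1.11 and adjusted p = 0.0011 for fkbp4, 0.98 and 0.00101 for hsph1) and neither in limma over all genes (adjusted p = 0.236 for fkbp4 and 0.239 for hsph1). On the lower side, hsp70.3 had 4.16, 2.49 and 2.43 FPKM in DN-MAML and 4.88, 5.03 and 17.7 FPKM in WT (limma, adjusted p = 0.393). The gene hspa4l had 0.20, 0.19 and 0.21 FPKM in DN-MAML and 0.47, 0.58 and 0.49 FPKM in WT, under the minimum for the test in limma, and it passes in the authors' deposited table (-1.26, adjusted p = 0.000346). These genes were named after their values were seen.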
